A study of Homo sapiens with 6 samples.

Results

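The AP-1 and immediate early factors described here are 10 human genes: FOS, FOSB, FOSL1 and FOSL2 of the FOS family, JUN, JUNB and JUND of the JUN family, and EGR1, ATF3 and IER3. They were chosen by name and matched by Ensembl identifier to the 58051 genes counted in each library. Of the 10 genes, 9 were among the 20536 genes with enough counts to be tested, the exception being FOSB. RNA-seq was done on A172, an established human glioblastoma cell line, made into stable lines with a lentiviral plasmid for RBFOX1 or, as control, for GFP. RBFOX1 is an RNA-binding protein of neurons and muscle that is known as a splicing regulator and also binds 3′ UTRs at TGCATG. Each condition had 3 biological replicates, numbered 1 to 3, and no other treatment. All 6 cultures had received lentiviral particles with polybrene and were grown in medium with serum, so both conditions share the viral transduction and the serum. The promoter of the plasmids, whether each replicate was 1 clone, and the time between plating and lysis are not given in the sources used here. The comparison below asks how the steady-state RNA of these genes differed between RBFOX1 and GFP cells.

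AP-1 is a dimer of basic leucine zipper (bZIP) proteins that binds the DNA sequence TGACTCA. JUN proteins can pair with each other or with FOS proteins, whereas FOS proteins need a JUN partner. FOS, FOSB, EGR1 and IER3 are immediate early genes, which growth factors and serum switch on within minutes without new protein synthesis, and whose short-lived messages carry AU-rich elements. FOSL1 and FOSL2, which encode FRA-1 and FRA-2, respond more slowly and stay high in many mesenchymal tumour cells. In glioblastoma, FOSL1 and JUN are known for their part in the mesenchymal state.

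The 6 libraries held between 7433414 and 23249221 counts on genes. Normalized counts below are counts scaled to a common library size, so that 1 count was worth 0.607 normalized counts in the deepest library, GFP replicate 1, and 1.81 in the shallowest, RBFOX1 replicate 1. RBFOX1 itself had 4, 0 and 1 counts in GFP replicates 1 to 3 and 10276, 16467 and 21451 in RBFOX1 replicates 1 to 3, as labelled, with the construct and the endogenous gene counted together. GFP replicate 1 stood apart from the other GFP libraries: divided by its degrees of freedom, the chi-square of their counts was 8.9 and 9.07, compared with 1.66 between GFP replicates 2 and 3. Among markers of the cell line, VIM and CD44 were abundant, while the astrocyte marker GFAP had 1 to 4 counts per library and OLIG1, SOX10 and AQP4 had none. Of the 7 glial markers 3 were tested, of which SOX2 was higher and OLIG2 lower, with sums of 135 to 163 normalized counts in GFP and 215 to 223 in RBFOX1 libraries. The summed normalized count of 8 mesenchymal glioma markers was 113636 to 113809 in GFP and 64943 to 66223 in RBFOX1 libraries, and 5 of the 8 fell. All 3 endothelial markers (PECAM1, VWF, CDH5) were higher in RBFOX1 cells, their sum going from 10.3 to 12.8 in GFP libraries up to 95.9 to 109 normalized counts. Of 3 epithelial markers 2 were higher, with sums of 8.43 to 14.01 and 49.0 to 66.7. Of 5 neuronal markers 3 were tested and 1, MAP2, was higher, with sums of 171.7 to 180 and 356 to 461. Among 5 immune markers CD3E and AIF1 had no count, PTPRC was higher and ITGAM lower, with sums of 60.7 to 77.1 and 81.6 to 89.5. The part of these markers in the results below was not tested.

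Of the 9 members tested, edgeR's quasi-likelihood test called 5 higher and 1 lower in RBFOX1 cells, and 3 did not pass (threshold 0.05 after Benjamini-Hochberg adjustment over all genes tested). FOS and EGR1 rose 12.7-fold and 12.5-fold from very low levels, FOSL2, ATF3 and IER3 rose between 1.30-fold and 1.78-fold, and JUNB fell slightly. FOSL1, JUN and JUND did not pass, although they are among the more abundant members. These shares are to be read against the whole transcriptome, in which 46.7% of the genes tested were called, 23.7% higher and 22.9% lower. At a change of at least 2-fold, 2 members (FOS and EGR1) were higher and 0 lower, against 8.23% and 4.48% of all genes tested. The median log2 fold change was 0.38 over the 9 members and 0.0051 over all genes tested. In 8 of the 9 members the libraries of the 2 conditions did not overlap, those of RBFOX1 lying above in 5 and below in 3, as was the case for 53.4% of all genes tested (26.9% above and 26.5% below). In bulk RNA, a change in the RNA per cell and a change in the share of cells that carry it cannot be told apart.

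**Figure D1:**
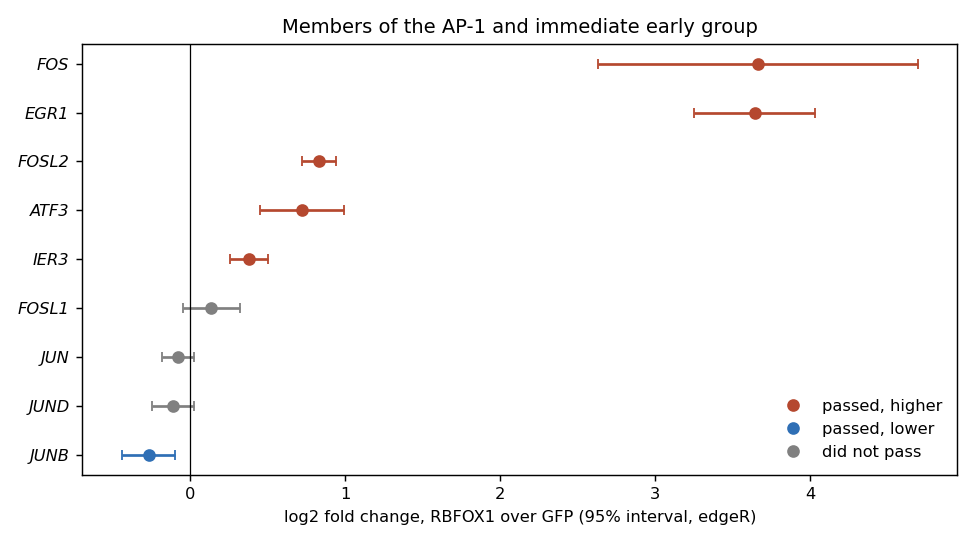
Log2 fold change of the 9 members tested, RBFOX1 over GFP cells, with the 95% interval of edgeR's quasi-likelihood fit (n = 3 libraries per condition; red, passed and higher; blue, passed and lower; grey, did not pass). FOS (3.66) and EGR1 (3.64) stand far to the right of the other members, and JUNB (-0.27) is the one that passed on the left.

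FOS (ENSG00000170345, GRCh38 chromosome 14, 75278826 to 75282230, plus strand), the founding member of its family, had 5, 1 and 0 counts in GFP replicates 1, 2 and 3, and 15, 24 and 20 counts in RBFOX1 replicates 1, 2 and 3. FOS was thus nearly silent in the control line and low in all 3 RBFOX1 libraries, each of which exceeded every GFP library. Its normalized count averaged 1.40 ± 1.53 in GFP cells and 24.0 ± 5.01 in RBFOX1 cells (SD, n = 3 each), a fitted log2 fold change of 3.66 (SE 0.493, edgeR adjusted p = 3.32e-06). Because the control rests on few counts, the size of the rise is loosely known. With the libraries of each condition pooled, 6 counts against 59 give a ratio of 13.3, with an exact 95% interval of 5.77 to 37.8 that covers counting error only. Without GFP replicate 1, which holds 5 of the 6 control counts, the fitted log2 fold change was 5.07.

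EGR1 (ENSG00000120738, chromosome 5, 138465479 to 138469303, plus strand) encodes a zinc finger factor that is induced by the same signals as FOS. It had 19, 12 and 13 counts in GFP replicates 1 to 3 and 96, 161 and 149 counts in RBFOX1 replicates 1 to 3. On the normalized scale this was 11.5, 14.01 and 13.7 against 174, 179 and 136. All RBFOX1 libraries were far above all GFP libraries, with RBFOX1 replicate 3 the lowest of its group. The log2 fold change was 3.64 (SE 0.187, edgeR adjusted p = 2.59e-12), or 12.5-fold with a 95% interval of 9.52 to 16.4. EGR1 thus had a far narrower interval than FOS for a rise of nearly the same fitted size.

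The 300-base promoter windows of RefSeq on GRCh38.p14, 250 bases before to 50 after the start site, were given for 8 of the 10 members (9 windows, 2 of them for ATF3), not for FOSL1 and IER3. They were searched on both strands for 4 motifs that do not overlap each other in these windows: the CArG box bound by serum response factor, TGACTCA bound by AP-1, TGACGTCA bound by CREB and ATF proteins, and TATAAA. CArG boxes were found in 1 member, EGR1, which holds 2 of them, against 1.29% of the 35116 promoter windows. They are printed because this box is the core of serum response elements, and the box is in capitals:
EGR1 -105, plus strand, chr5:138465364-138465393: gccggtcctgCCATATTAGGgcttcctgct
EGR1 -83, plus strand, chr5:138465386-138465415: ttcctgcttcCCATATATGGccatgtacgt
TGACTCA was found in FOSL2 alone among the members and in 4.95% of all windows, and TGACGTCA in JUND alone and in 1.85% of all windows. Motifs of these letters are known to bind the dimers that the members form, and they are shown with the motif in capitals:
FOSL2 +5, plus strand, chr2:28392851-28392879: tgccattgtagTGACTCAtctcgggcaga
JUND -200, minus strand, chr19:18281804-18281833: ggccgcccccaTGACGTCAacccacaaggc
TATAAA was found in FOS, FOSB, JUNB and ATF3, and in 11.5% of all windows. The FOS window held none of the other 3 motifs, but sequence more than 250 bases before the start site was not searched for any member. Positions are those of the first base of the motif relative to the start site, and a match in letters does not show that a factor was bound in these cells.

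FOSL2 (ENSG00000075426, chromosome 2, 28392448 to 28417317, plus strand) had the largest rise among the abundant members. Its normalized counts were 1353, 1419 and 1374 in GFP replicates 1 to 3 and 2605, 2407 and 2375 in RBFOX1 replicates 1 to 3. Every RBFOX1 library was far above every GFP library, and the spread within each group was small. The means were 1382 ± 33.9 and 2462 ± 124 (SD, n = 3 each), and the fitted log2 fold change was 0.83 (SE 0.0524, edgeR adjusted p = 6.07e-11), or 1.78-fold with a 95% interval of 1.65 to 1.92. A lncRNA on the same strand overlaps FOSL2 and had 44 counts over the 6 libraries, and FOSL2-AS1 on the opposite strand had 34.

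FOSL1 (ENSG00000175592, chromosome 11, 65892049 to 65900573, minus strand), which encodes FRA-1, had normalized counts of 393, 443 and 484 in GFP and 546, 465 and 445 in RBFOX1 cells. The groups overlapped, with RBFOX1 replicate 1 the highest and GFP replicate 1 the lowest library. The log2 fold change of 0.14 (SE 0.0887) did not pass the threshold (edgeR adjusted p = 0.229), and its interval ran from 0.967-fold to 1.25-fold, so that a rise as large as that of FOSL2 lies outside it. FOSB (ENSG00000125740, chromosome 19, 45467995 to 45475179, plus strand), the immediate early relative of FOS, had 4, 0 and 1 counts in GFP and 0, 1 and 1 in RBFOX1 cells. It was too low to be tested, and no fold is given for it. ERCC1 overlaps FOSB on the opposite strand.

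In the JUN family the differences were small and all in the direction of lower values in RBFOX1 cells. JUN (ENSG00000177606, chromosome 1, 58776845 to 58784048, minus strand), the archetypal JUN protein gene, had normalized counts of 1497, 1533 and 1553 in GFP and 1433, 1464 and 1435 in RBFOX1 cells. All 3 RBFOX1 libraries lay below the GFP libraries, but the log2 fold change of -0.080 (SE 0.0505) did not pass the threshold (edgeR adjusted p = 0.215). Its 95% interval ran from 0.879-fold to 1.02-fold.

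JUNB (ENSG00000171223, chromosome 19, 12791486 to 12793315, plus strand), often a weaker activator than JUN, had normalized counts of 667, 535 and 546 in GFP and 502, 484 and 482 in RBFOX1 cells. GFP replicate 1 was well above the other 5 libraries. HOOK2, which overlaps JUNB on the opposite strand, had 1044 counts over the 6 libraries, and its part in the value of JUNB was not tested. JUNB fell by 0.27 on the log2 scale (SE 0.0824, edgeR adjusted p = 0.0109), but the difference was not called without GFP replicate 1 (log2 fold change -0.14, adjusted p = 0.104) or without RBFOX1 replicate 3 (-0.25, adjusted p = 0.0531). JUND (ENSG00000130522, chromosome 19, 18279694 to 18281622, minus strand), the family member least dependent on stimulation, had 624, 633 and 616 normalized counts in GFP cells and 550, 563 and 613 in RBFOX1 cells. RBFOX1 replicate 3 nearly reached the lowest GFP library. The log2 fold change of -0.11 (SE 0.0662) did not pass the threshold (edgeR adjusted p = 0.185), with an interval of 0.841-fold to 1.02-fold.

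ATF3 (ENSG00000162772, chromosome 1, 212565334 to 212620777, plus strand) encodes a stress-induced bZIP protein that can pair with JUN proteins and often represses. Its normalized counts were 95.3, 137 and 114 in GFP and 212, 182 and 171 in RBFOX1 cells. The groups did not overlap, with GFP replicate 2 the highest control. The log2 fold change was 0.72 (SE 0.13, edgeR adjusted p = 0.000104), or 1.65-fold. IER3 (ENSG00000137331, chromosome 6, 30743199 to 30744548, minus strand), which encodes a short regulator of survival and ERK signalling and is no transcription factor, had 927, 833 and 888 normalized counts in GFP cells and 1123, 1156 and 1168 in RBFOX1 cells. All RBFOX1 libraries were above all GFP libraries by a modest margin. The lncRNAs IER3-AS1 and HCG20, which overlap IER3 on the opposite strand, had 16 and 19 counts over the 6 libraries. The log2 fold change was 0.38 (SE 0.0582, edgeR adjusted p = 1.78e-05), or 1.30-fold.

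**Figure D2:**
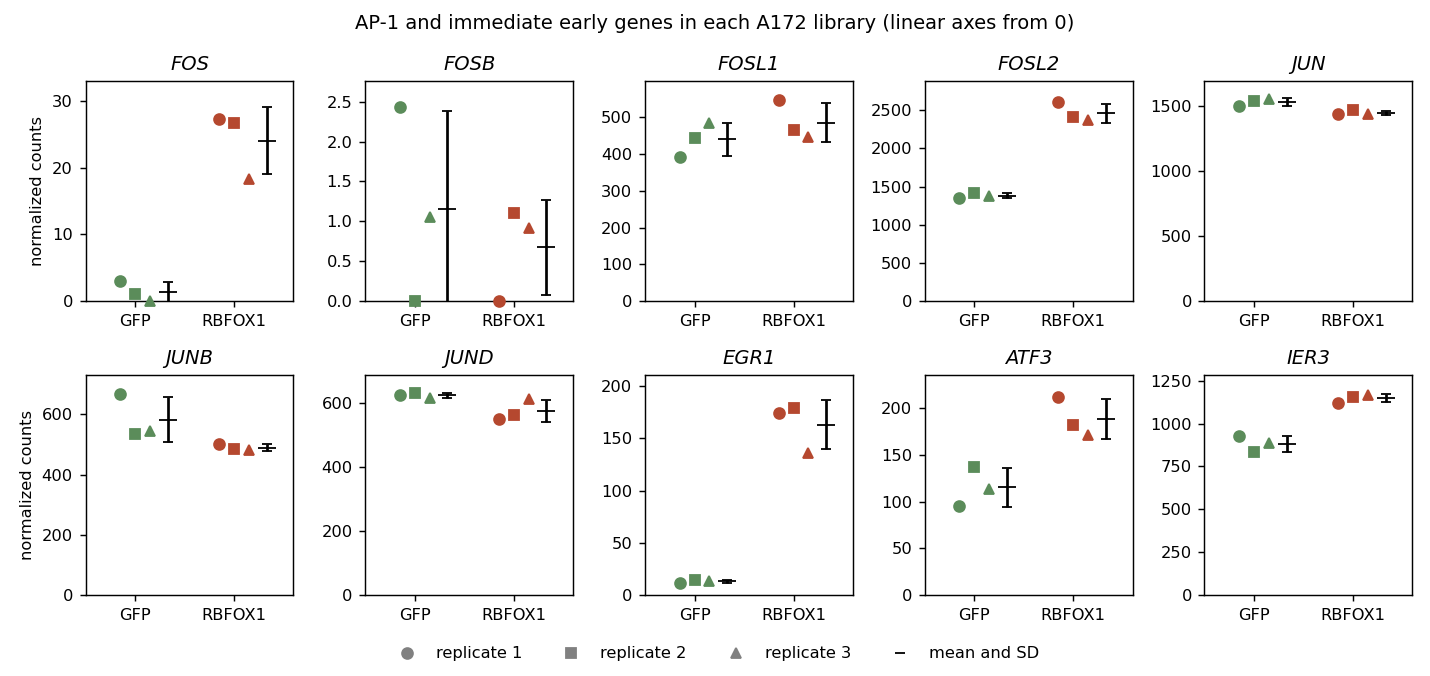
Normalized counts of the 10 members in each of the 6 libraries, on linear axes that start at 0 (green, GFP; red, RBFOX1; symbols mark the replicate; black bars give the mean and SD of 3 libraries). FOS and EGR1 are near 0 in GFP cells, FOSL2, ATF3 and IER3 separate fully, the 2 groups of FOSL1 overlap, and FOSB is at 2.43 or less everywhere.

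Levels can be compared between genes per length, as CPM (scaled by TMM) per kilobase of annotated exon. On this scale the order in GFP cells was IER3 (47.1 ± 2.53), JUN (30.4 ± 0.562), JUND (23.3 ± 0.312), JUNB (22.9 ± 2.89), FOSL1 (16.8 ± 1.74), FOSL2 (13.9 ± 0.341), ATF3 (2.08 ± 0.373), EGR1 (0.301 ± 0.031), FOS (0.0317 ± 0.0346) and FOSB (0.0151 ± 0.0158; SD, n = 3 each). Neighbours in this order were separated by all 3 libraries, except JUND from JUNB and FOS from FOSB. The lowest levels turned on single libraries: without GFP replicate 1 that of FOS was 0.0132 and that of FOSB 0.00684, without GFP replicate 3 that of FOS was 0.0475, and without GFP replicate 2 that of FOSB was 0.0226. In RBFOX1 cells FOSL2, at 24.8 ± 1.25, ranked below IER3 and JUN and above JUND (21.5 ± 1.24), JUNB (19.3 ± 0.441) and FOSL1 (18.5 ± 2.05), the last pair overlapping. EGR1 reached 3.74 ± 0.538 and overlapped ATF3 at 3.40 ± 0.386, and FOS reached only 0.544 ± 0.113. FOSB was at 0.00875 ± 0.00769, and at 0.0131 without RBFOX1 replicate 1. The 12.5-fold rise of EGR1 thus ended at a level below that of any JUN gene, and FOS remained far lower than FOSL1 and FOSL2. With the longest transcript as length, ATF3 was at 6.45 in RBFOX1 cells, above EGR1.

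Within the FOS family, FOSL1 held 54.5 ± 2.48% and FOSL2 45.3 ± 2.34% of the summed level in GFP cells (SD, n = 3 each). In RBFOX1 cells the order was the opposite, with 42.2 ± 1.38% for FOSL1 and 56.6 ± 1.46% for FOSL2. The share of FOSL2 was 47.4, 45.7 and 42.8% in GFP and 55.0, 56.8 and 57.9% in RBFOX1 replicates 1 to 3, so the libraries did not overlap. FOS held 0.108 ± 0.121% of the family in GFP and 1.24 ± 0.213% in RBFOX1 cells. The control share rests on 6 counts, and it was 0.0423% without GFP replicate 1 and 0.162% without GFP replicate 3. The summed FOS family level was 30.7 ± 1.84 and 43.9 ± 3.37 CPM per kilobase in GFP and RBFOX1 cells. The makeup of the JUN family was nearly the same in both conditions, JUN holding 39.7 ± 1.88% and 41.3 ± 0.78%, JUNB 29.9 ± 2.81% and 27.8 ± 0.911%, and JUND 30.4 ± 1.03% and 30.9 ± 1.41%. Its sum was 76.6 ± 2.35 in GFP and 69.5 ± 0.827 in RBFOX1 cells. The ratio of the FOS sum to the JUN sum was 0.362, 0.415 and 0.429 in GFP replicates 1 to 3 and 0.693, 0.616 and 0.587 in RBFOX1 replicates 1 to 3. These shares and sums are descriptions with no test, and they describe messages, not proteins.

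**Figure D3:**
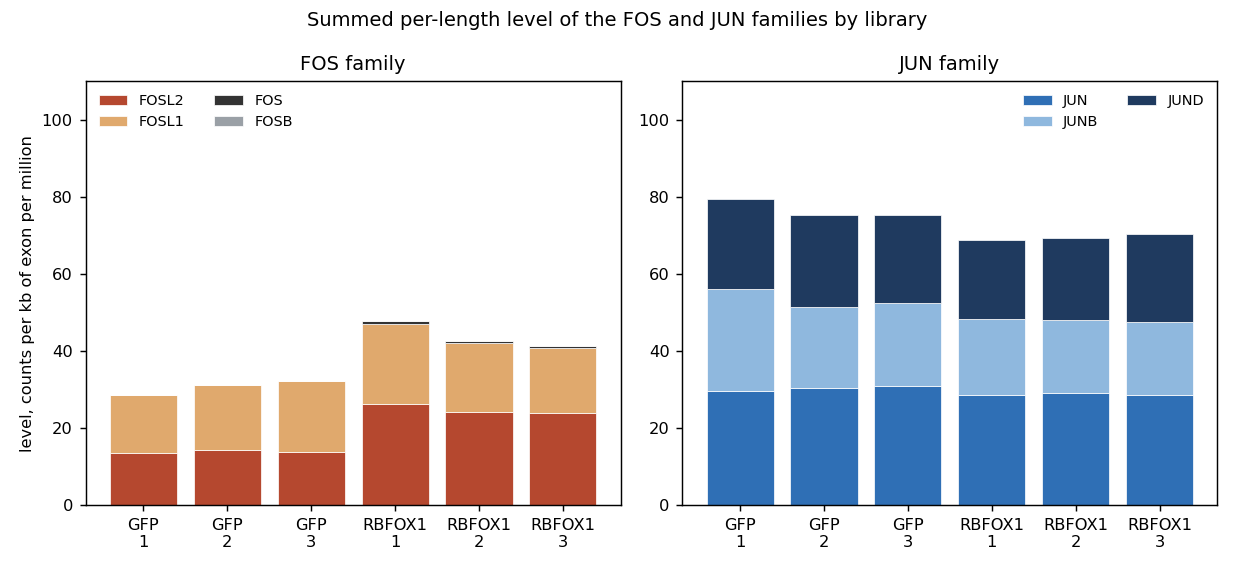
Per-length level (CPM per kilobase of exon) of the FOS family, left, and the JUN family, right, in each library, stacked by gene. The FOS family sum is 28.7 to 32.3 in GFP and 41.3 to 47.7 in RBFOX1 libraries, mainly through FOSL2, while the JUN family sum is 75.2 to 79.3 and 68.8 to 70.4.

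The members also differed in how much they varied between replicates of a condition. The pooled within-condition SD on the log2 scale was 0.0227 for JUN, 0.0566 for FOSL2, 0.0589 for IER3 and 0.0597 for JUND. It was 0.127 for JUNB, 0.153 for FOSL1, 0.183 for EGR1 and 0.214 for ATF3, whereas FOS and FOSB, at 0.746 and 0.755, rested on few counts. Over the 6 libraries, deviations from the condition means had a Pearson's r of 0.835 for FOSL2 with ATF3 and -0.976 for ATF3 with IER3. The other pairs of members with a mean of at least 50 normalized counts, EGR1 included, had values from -0.793 to 0.765. RBFOX1 replicate 1, the shallowest library, was the highest of its group for FOS, FOSL1, FOSL2, JUNB and ATF3. Among 11068 other protein-coding genes with a mean of at least 50 normalized counts, the deviations most like those of JUN were in PRKAR2A (r = 0.998), of EGR1 in PLEKHM1 (0.996), of ATF3 in MDN1 (0.998) and of FOSL1 in MTFR2 (0.999), and for FOS, among 11069, in TATDN1 (0.995). With only 6 libraries and their shared depth, the tenth most similar gene still had an r of 0.981 to 0.993 in each case, so these correlations single out no gene.

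The gene structure of the members, which their choice by name did not use, was often compact. The canonical transcript has 1 or 2 exons in 5 of the 10, among them the single-exon JUN, JUNB and JUND, compared with 7.45% of 14049 tested protein-coding genes with an annotated 3′ UTR, whose median is 9 exons. The median gene span was 5505 nucleotides for the members and 34093 for these genes. At least 1 ATTTA pentamer, the core of AU-rich elements, was present in the canonical 3′ UTR of all 10 members and of 72.2% of these genes, and 3 or more in 6 of 10 members and 46.3% of these genes. Per kilobase of 3′ UTR, IER3 had 8.14 and FOS 6.20 pentamers, a higher density than 98.1% and 95.3% of these genes, while EGR1 had 0.818 and FOSL1 1.19, both below the median of 1.67. A stretch with 2 pentamers from FOS and from IER3 is shown as examples of the AU-rich element, with each ATTTA in capitals (GENCODE release 44 on GRCh38):
FOS, plus strand, chr14:75282058-75282086: tgtgtttttaATTTATTTAttaagatgga
IER3, minus strand, chr6:30743648-30743676: aattaatATTTAtatgtATTTAtgtacgt

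The RBFOX motif TGCATG occurred once each in the canonical 3′ UTR of 4 of the 10 members, EGR1, FOSB, FOSL1 and JUN, compared with 36.5% of the 14049 genes. The sites are shown, with the motif in capitals, because RBFOX1 is the protein that was overexpressed:
EGR1, plus strand, chr5:138468339-138468368: aagaacttgattTGCATGgattttggataa
FOSB, plus strand, chr19:45474461-45474490: ctccatccgtgcTGCATGaaaaacattcca
FOSL1, minus strand, chr11:65892122-65892151: ctacagactcacTGCATGaccttggacaaa
JUN, minus strand, chr1:58781754-58781783: ttgaccaagaacTGCATGgacctaacattc
In EGR1 the motif starts at nucleotide 270 of a 3′ UTR of 1222 nucleotides, and in JUN at 304 of 1284. The 3 tested members with a site thus had log2 fold changes of 3.64 (EGR1), 0.14 (FOSL1) and -0.080 (JUN). FOS, FOSL2, ATF3 and IER3, which rose, had no TGCATG in the canonical 3′ UTR, and neither did JUNB, which fell, or JUND. The shorter RBFOX core GCATG, which every TGCATG contains, was present in 7 of the 10 members and in 61.8% of the 14049 genes. FOSL2 had 4 copies of it in its 3′ UTR, FOS, JUND, JUN and EGR1 had 2 each, FOSB and FOSL1 had 1 each, and ATF3, IER3 and JUNB had 0. A match in letters does not show binding, and absence from this stretch says nothing about sites elsewhere in the transcript.

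Beyond the members, 37 other immediate early and early response genes were examined, of which 34 were tested. They split evenly, with 14 higher and 14 lower (41.2% each), against 23.7% and 22.9% of all genes tested. The other 6 did not pass, and the median log2 fold change of the list was -0.053. All 7 that passed with a change of at least 2-fold were higher, against 8.23% of all genes tested higher and 4.48% lower. They were EGR2, EGR3, MYC, DUSP1, CCN1, CCN2 and SOCS3, the last chosen after its values were seen. EGR2 and EGR3, relatives of EGR1, were also higher, at low counts. EGR2 had 2, 2 and 3 counts in GFP and 9, 10 and 13 in RBFOX1 cells, a pooled ratio of 6.20 (exact 95% interval 2.69 to 16.6, counting error only; edgeR adjusted p = 0.000257). EGR3 had 8, 0 and 5 against 12, 13 and 22 counts, with a log2 fold change of 2.27 (edgeR adjusted p = 0.000424), while EGR4 had at most 3 counts in any library and was not tested.
The matricellular genes CCN1 and CCN2, known targets of serum response factor and YAP, rose from 156 ± 25.7 to 622 ± 55.2 and from 1587 ± 269 to 5300 ± 50.3 normalized counts (SD, n = 3 each), with log2 fold changes of 2.001 and 1.75. MYC, the growth regulator, had a log2 fold change of 1.01 (edgeR adjusted p = 1.09e-09). DUSP1, the phosphatase that switches off MAP kinases, went from 257 ± 21.7 to 671 ± 13.5 normalized counts (log2 fold change 1.37). TRIB1 and the antiproliferative gene BTG2 fell most among genes with a mean of at least 50 normalized counts, by 0.97 and 0.96 on the log2 scale. ZFP36, which encodes the decay factor tristetraprolin, had 51.9 ± 8.28 and 49.5 ± 1.41 normalized counts in GFP cells and RBFOX1 cells and did not pass (edgeR adjusted p = 0.942).

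Of 35 other bZIP genes, the possible partners and competitors of the members, 34 were tested. Of these, 8 were higher and 12 lower (23.5% and 35.3%), against 23.7% and 22.9% of all genes tested. The median log2 fold change of the list was 0.064. At a change of at least 2-fold, 4 were higher and 0 lower, against 8.23% and 4.48% of all genes tested. JDP2, a repressor that pairs with JUN proteins, fell from 294 ± 21.6 to 227 ± 21.99 normalized counts (log2 fold change -0.36, edgeR adjusted p = 0.0032). BATF3, another partner of JUN proteins, fell from 49.7 ± 4.46 to 27.3 ± 8.18 (log2 fold change -0.87, edgeR adjusted p = 0.00276). NFE2L3 and CEBPA fell by 0.95 and 0.89 on the log2 scale, and CREB3L1 and ATF1 had log2 fold changes of 0.71 and 0.40. Of the 4 genes of this list that rose at least 2-fold, those described here, named after their values were seen, are MAF (log2 fold change 1.87), CEBPD (1.49) and NFE2, a blood lineage factor with 0, 1 and 0 counts in GFP and 10, 19 and 26 in RBFOX1 cells (pooled ratio 74.6, exact 95% interval 12.8 to 2998, counting error only). These were low, at a mean of no more than 69.9 normalized counts in either condition.

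All 32 kinases and factors upstream of FOS, JUN and EGR1 were tested. Of these, 8 were higher and 13 lower (25.0% and 40.6%), against 23.7% and 22.9% of all genes tested. The median log2 fold change of the list was -0.064. SRF, the factor that binds CArG boxes, had 394 ± 12.8 normalized counts in GFP cells and 398 ± 14.7 in RBFOX1 cells and did not pass (log2 fold change 0.019, 95% interval -0.13 to 0.17, edgeR adjusted p = 0.865). RPS6KA5, which encodes the nuclear kinase MSK1 that phosphorylates CREB and histone H3 at immediate early genes, went up from 118 ± 11.3 to 428 ± 23.7 normalized counts, a log2 fold change of 1.88 (SE 0.0943, edgeR adjusted p = 1.78e-12). MAP2K3, a kinase that activates p38, had a log2 fold change of 0.87. The ribosomal S6 kinases RPS6KA3 and RPS6KA1, which act below ERK, fell by 0.89 and 0.81 on the log2 scale. The corepressors of EGR1 went in opposite directions, NAB2 with a log2 fold change of 0.51 and NAB1 with one of -0.53, values looked up after the fit.

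Among 30 textbook target genes of AP-1, 28 were tested, with a median log2 fold change of -0.85. Of these, 18 were lower and 5 higher (64.3% and 17.9%), against 22.9% and 23.7% of all genes tested. At a change of at least 2-fold, 12 of the 28 were lower and 3 higher, against 4.48% and 8.23% of all genes tested. MMP1, the interstitial collagenase whose promoter holds a classic AP-1 site, fell from 1597 ± 97.0 to 221 ± 9.11 normalized counts, a log2 fold change of -2.84 (SE 0.0718, edgeR adjusted p = 5.06e-17). PLAUR, the urokinase receptor, fell from 4421 ± 63.7 to 1955 ± 49.7 (log2 fold change -1.18), and CCND1, cyclin D1, from 17056 ± 919 to 13871 ± 171 (-0.30). The largest falls with a mean of at least 50 normalized counts were those of HMGA2 (-4.93) and TNC (-3.66), an architectural chromatin protein and a matrix glycoprotein. KRT18, an intermediate filament gene with many processed pseudogenes, and TIMP1, an inhibitor of matrix proteases, had log2 fold changes of 1.98 and 0.69. CD44 and TNC of this list are also among the mesenchymal glioma markers above, whose sum was lower in RBFOX1 cells. The list was written by hand with earlier results of these data known, the fall of HMGA2 among them. Its shares beside those of all genes are therefore a description, not an independent comparison.

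Of 18 proteins that bind AU-rich or related elements or degrade the messages that carry them, all tested, 8 were higher and 1 lower. These shares were 44.4% and 5.56%, against 23.7% and 22.9% of all genes tested. The median log2 fold change of the list was 0.12. HNRNPD, the AU-rich element binding protein AUF1, rose from 374 ± 42.8 to 621 ± 74.0 normalized counts (log2 fold change 0.73, edgeR adjusted p = 1.34e-06). CELF1, which binds GU-rich elements, had a log2 fold change of 0.23. CNOT8, a deadenylase subunit, fell by 0.19 on the log2 scale (edgeR adjusted p = 0.0118), a call that was lost without RBFOX1 replicate 2 (edgeR adjusted p = 0.0533) and with scaling by library totals (0.0615).

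**Figure D4:**
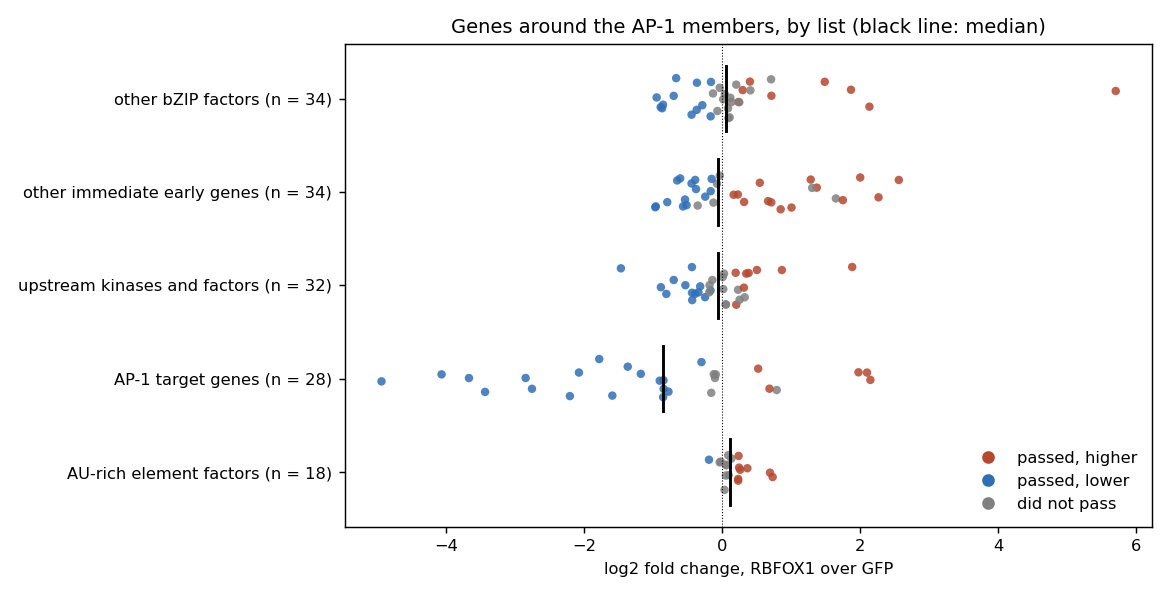
Log2 fold change, RBFOX1 over GFP cells, of each tested gene in the 5 lists around the members, with the vertical scatter added for legibility (red, passed and higher; blue, passed and lower; grey, did not pass; black line, median of the list). The AP-1 target genes have a median of -0.85, while the medians of the other 4 lists lie between -0.064 and 0.12.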

How the data were processed

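Stranded libraries of rRNA-depleted RNA, 3 from GFP and 3 from RBFOX1 stable A172 lines, were sequenced from both ends. HISAT2 was the aligner of the authors and GRCh38 the genome. The deposited counts, raw and not normalized, were made by HTSeq-count (intersection-strict) from Ensembl gene models. Tool versions are not given in the sources used here. The HTSeq lines that name no gene were left out, and 52.0 to 61.9% of read pairs were counted on a gene. A deposited table of the authors' own DESeq2 comparison (means, fold changes, p-values) was not used.

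Genes whose counts over the 6 libraries summed to 10 or more were scaled by TMM and compared with edgeR's two-sided quasi-likelihood test, condition being the single term (R 4.3.3 and edgeR 4.0.16). Standard errors were derived from the F statistic, and 95% intervals from it and the total degrees of freedom of edgeR's fit, residual plus prior. Normalized counts are counts divided by the effective library size relative to its mean. P-values set the difference between the conditions against the spread between libraries of a condition. Where replicates share a stable line, a difference between lines cannot be told apart from that between conditions. Symbols, exon lengths and 3′ UTRs came from GENCODE release 44, later than the annotation counted, and 98.1% of gene identifiers matched. The kit marks strand, but whether the counting used it is not given in the sources used here, so genes that overlap on opposite strands may share reads. Alternatives were DESeq2 (1.42.0), limma-voom (limma 3.58.1), other scalings and filters, a replicate block, a threshold of 0.01, a minimum absolute log2 fold change of 1 and the omission of each library. The procedure was tested on simulated data.

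Named were all members, RBFOX1, 11 genes set by name (EGR2, EGR3, MYC, SRF, ZFP36, DUSP1, JDP2, BATF3, MMP1, PLAUR, CCND1), and per list the 2 largest and 2 smallest log2 fold changes among called genes with a mean of at least 50 normalized counts, with the genes whose deviations were most like those of 5 members. Some genes that this rule or these lists hold are not reported here. The members and lists were chosen with earlier results of these data known.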

Additional observations from a re-analysis of the deposited data

How the results depend on the processing

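FOS, EGR1, FOSL2, ATF3 and IER3 passed the threshold, higher, under all 14 alternative fits, and FOSL1, JUN and JUND passed under none of them (lowest adjusted p = 0.0791, 0.0964 and 0.105). The direction of all 9 members held throughout. JUNB was called except without GFP replicate 1 or RBFOX1 replicate 3, its log2 fold change lying between -0.33 and -0.14 with each library left out, and the number of members lower was 1 or 0 while that of members higher stayed 5. With each library left out, log2 fold changes ran from 3.22 to 5.07 for FOS, 3.53 to 3.78 for EGR1, 0.80 to 0.86 for FOSL2, 0.57 to 0.84 for ATF3, 0.33 to 0.42 for IER3, 0.047 to 0.21 for FOSL1, -0.090 to -0.066 for JUN and -0.16 to -0.075 for JUND. Few counts limit FOS, FOSB and the EGR relatives.

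At a threshold of 0.01, 0 members were lower, and 0 genes of the list of AU-rich element factors. A minimum change of 2-fold left 2 members higher and 0 lower, 4 and 0 other bZIP genes, 7 and 0 other immediate early genes, 1 and 1 upstream genes, 3 target genes higher, 0 and 0 AU-rich element factors, and 1691 and 920 of all genes, since fewer genes meet it by construction. Scaling by library totals left 0 AU-rich element factors lower, and leaving out each library 0 or 1. That scaling also moved all genes to 5419 higher and 4152 lower, from 4869 and 4712. SRF reversed to -0.0052 with upper-quartile factors and -0.0041 without GFP replicate 2, and ZFP36 to 0.017 with library totals and 0.071 without GFP replicate 2, none called; with each library left out they ran from -0.0041 to 0.053 and from -0.16 to 0.071. The cause was not tested.

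With the longest transcript as gene length, levels in CPM per kilobase became 0.823 for FOS in RBFOX1 cells, 18.6 for FOSL1 in GFP cells, 14.8 and 26.4 for FOSL2, 33.8 and 32.0 for JUN and 3.95 and 6.45 for ATF3 in GFP and RBFOX1 cells. Family shares became 1.72% for FOS in RBFOX1 cells, 42.2% and 43.9% for JUN in GFP and RBFOX1 cells, 26.5% for JUNB in RBFOX1 and 29.2% for JUND in GFP cells. The other length alone makes these shifts, and FOSL2 kept the larger FOS family share in RBFOX1 cells.

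The labels number the replicates but do not say whether same-numbered samples were handled together. Same-numbered GFP and RBFOX1 libraries had deviations correlated at -0.172, 0.0348 and -0.0568, which shows no pairing by number. With 3 libraries per condition, such correlations cannot exclude pairing. No GFP library correlated best with the RBFOX1 library of its own number. Among the RBFOX1 libraries only replicate 2 correlated best with its own number, at 0.0348. With a replicate block, 5 members were higher and 1 lower, and FOS had a log2 fold change of 3.81; all tested genes gave 4588 higher and 4458 lower.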
